A study of Homo sapiens with 9 samples.

Results

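The genes of the respiratory chain and the ATP synthase were followed complex by complex in OVCA433, an established line of human ovarian serous adenocarcinoma cells. Members were the protein-coding genes whose symbols begin with MT-, NDUFA, NDUFB, NDUFC, NDUFS or NDUFV with a number, UQCR, COX4 to COX8 or ATP5, with SDHA, SDHB, SDHC, SDHD and CYC1. The rule gave 103 of the 58676 genes listed, of which 13 are encoded by mitochondrial DNA and 90 by nuclear DNA. Messenger RNA had been sequenced from 3 groups of 3 libraries marked A, B and C. The control cells carried a control vector and are labelled wild type, and the other groups carried shRNA hairpin #1 or hairpin #3 against MPZL3 and are labelled MPZL3 knock-down. By the methods, cells were transduced with lentivirus in the presence of polybrene and selected with puromycin. The methods call the OVCA433 control an empty vector and elsewhere a scramble control, so whether it expresses a hairpin is uncertain.

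The respiratory chain passes electrons from NADH through complex I, or from succinate through complex II, to coenzyme Q, and on through complex III, cytochrome c and complex IV to oxygen. Complexes I, III and IV pump protons across the inner mitochondrial membrane, and complex V, the ATP synthase, uses their return to make ATP. Complexes I, III, IV and V are built from subunits of both genomes, which are transcribed by different machinery, whereas all subunits of complex II are nuclear.

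Library totals ranged from 16850854 to 23890191 counts. Levels are given as CPM, the usual depth-scaled count with TMM factors, and differences as log2 fold changes ± SE from edgeR. A gene was called at a Benjamini-Hochberg adjusted p-value under 0.05 over the 15975 genes tested. MPZL3 was at 15.6, 21.9 and 21.0 CPM in control libraries A, B and C and at 0.988 to 1.98 CPM in the 6 knockdown libraries, a log2 fold change of -3.49 ± 0.19 (adjusted p = 6.87e-08). Of the 8 serous epithelial markers examined, WT1 was at 0 in all libraries and MUC16 at 0 in the knockdown libraries, and the sum of the list was 10245 to 12318 CPM in control and 5157 to 6668 CPM in knockdown libraries. The 6 fibroblast markers summed to 18.6 to 22.1 CPM in control, 109 to 446 CPM with hairpin #1 and 501 to 870 CPM with hairpin #3. Most of that sum was COL1A1, while DCN was at 0 in every library. The part of these shifts in the results was not tested, and in bulk RNA fewer cells of a kind and less RNA per cell cannot be told apart.

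Of the 103 members, 90 passed the filter on low counts, including all 13 mitochondrially encoded genes. The 13 that did not were COX4I2, COX6A2, COX6B2, COX7A1, COX7B2, COX8C, NDUFA4L2, NDUFA7, ATP5I, ATP5EP2, ATP5L2 and the readthrough genes NDUFC2-KCTD14 and ATP5J2-PTCD1. Several of these are tissue-restricted isoforms of a subunit that another gene supplies in most cells. Levels can be compared between genes only per kilobase of gene length, and then only roughly. The length is the one listed with the counts. For NDUFA10 it is 9517 bases, equal to all its annotated exonic bases, so it need not be the length of the transcript present. The ubiquitous cytochrome c oxidase isoform COX4I1 was at 37.2 ± 4.3 CPM per kb in control (SD, n = 3), against 0.118 ± 0.11 for COX4I2. COX7A2 was likewise at 50.5 ± 5.8 CPM per kb and COX7A1, its muscle form, at 0.470 ± 0.30. COX6A2, the muscle form of subunit 6A, and COX7B2 had no count in any library.

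Among nuclear subunits the highest level per length in control was that of NDUFS5, a complex I accessory subunit, at 426 ± 40 CPM per kb, followed by ATP5B, the catalytic beta subunit of the ATP synthase, at 299 ± 5.6. The median of the nuclear subunits per complex lay between 18.8 CPM per kb for complex II and 30.7 for complex III. The mitochondrially encoded genes were far above this, from 768 ± 190 CPM per kb for MT-ND6 to 6248 ± 1415 for MT-CO1, with MT-ATP8 as the exception at 6.84 ± 2.0. MT-CO1 and MT-CO2 at the top of this order, and MT-ND4L and MT-ND5 near its lower end, did not differ beyond their spread. MT-ND4L shares 2.36% of its bases with MT-ND4, and MT-ATP8 overlaps MT-ATP6, as given below. How reads over shared bases were counted is not given in the sources used here, so the places of MT-ND4L and MT-ATP8 are uncertain.

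With both hairpins as 1 arm against control, more nuclear members were called lower than higher. Of the 90 members tested, 18 were called, 20.0% of them, against 33.0% of all tested genes. The 16 lower calls were 17.8% of the members and 17% of all genes, whereas the 2 higher calls were 2.22% of the members against 15.9% of all genes. No member reached a log2 fold change of 1 in size, which 14.7% of all genes did with a call. All 18 called members were nuclear. All 6 knockdown libraries were below the lowest control library in 15 of the 90 members, or 16.7%, against 17.6% of all genes, and above the highest in 2, or 2.22%, against 15.5%. All 17 of these members were among the 18 called, and UQCRQ was called with overlap. The median log2 fold change of the 77 nuclear members tested was -0.12, with 55 below 0, and that of all tested genes was 0.0045.

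These calls depended on single libraries in part. With each of the 9 libraries left out in turn, 9 of the 18 members kept their call, namely ATP5G2 among the higher and ATP5L, NDUFA3, UQCRFS1, NDUFB4, NDUFB9, NDUFC1, COX6C and SDHB among the lower. The other 9 lost it at adjusted p-values of 0.0534 to 0.247. The count of 18 became 9 without control library B, 11 without control library C and 11 without the 3 libraries of letter A. The share of all genes called fell as well, from 33.0% to 22.9%, 24.6% and 26.7% in the same order.

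Hairpin #1 alone called 16 members, 2 higher and 14 lower, where 37.8% of all genes were called, 18.0% higher and 19.7% lower. Hairpin #3 alone called 20 members, 2 higher and 18 lower, where 34.7% of all genes were called, 16.6% higher and 18.1% lower. No member reached a log2 fold change of 1 in size with either hairpin, which 16.3% and 15.3% of all genes did with a call. Without control library B, control library C or hairpin #3 library B the count for hairpin #3 was 12, 13 and 13. The share of all genes called with hairpin #3 was then 27.3%, 28.9% and 27.5%. Both comparisons share the 3 control libraries. Neither held a term for the letter. With such a term more members and more of all genes were called, as given in the closing sections. By complex, the nuclear medians with hairpin #1 were -0.054 for complex I, -0.12 for II, -0.25 for III, -0.17 for IV and -0.023 for V. With hairpin #3 they were -0.23, -0.22, -0.26, -0.19 and -0.066 in the same order, and the medians of all genes were 0.00088 and -0.0029.

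**Figure D1:**
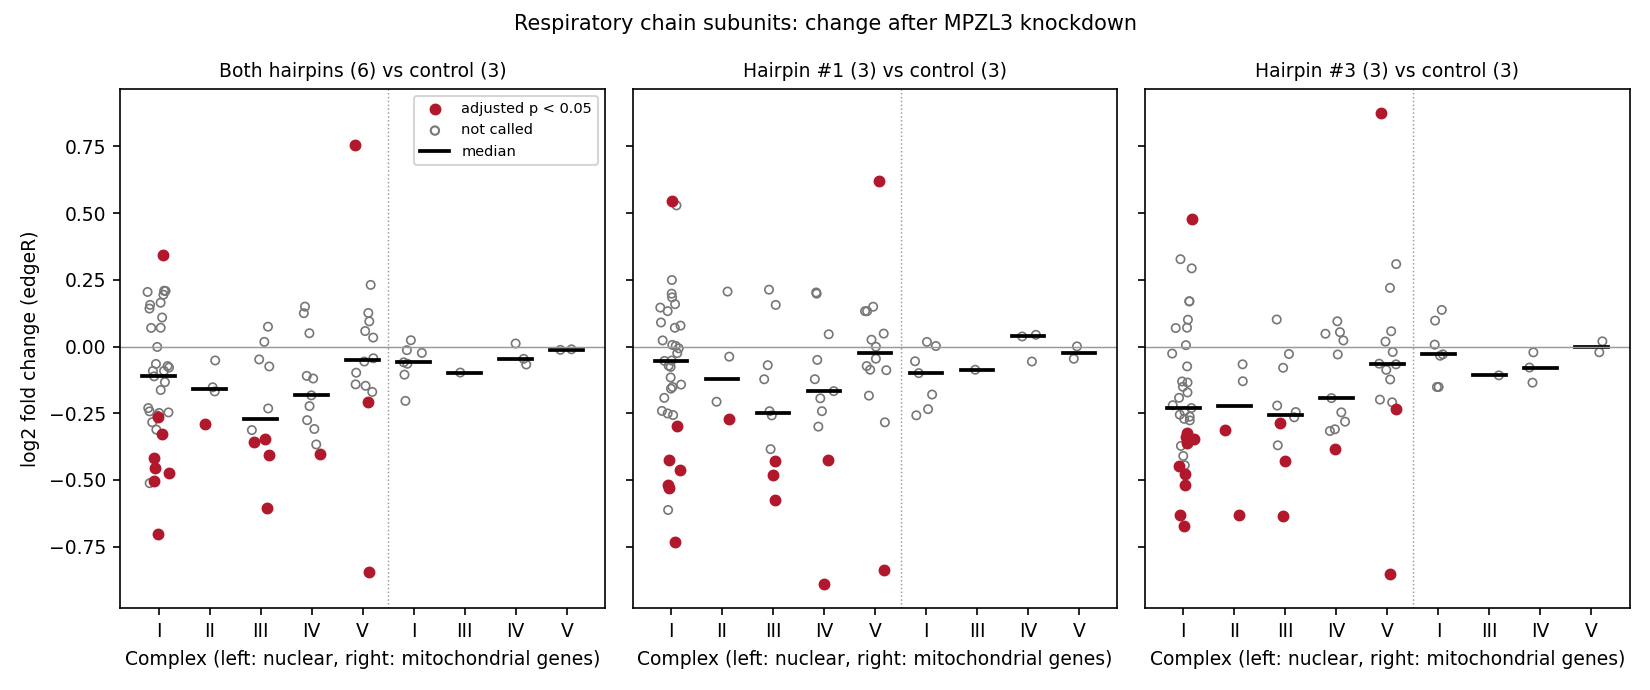
log2 fold change (edgeR) of each tested subunit, by complex, for both hairpins, hairpin #1 and hairpin #3 against control; filled red points are genes called at an adjusted p under 0.05, open points were not called, and bars are medians. Nuclear genes stand left of the dotted line and hold all calls, most of them below 0, while the mitochondrially encoded genes on the right lie between -0.26 and 0.14.

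Complex I, the NADH dehydrogenase, had 35 tested nuclear subunits, of which 7 were lower, 1 was higher and 27 were not called in the pooled comparison. The share called was 22.9%, against 33.0% of all genes. The median of the 35 was -0.11. NDUFA3, an accessory subunit of the membrane arm, was at 52.1, 71.4 and 71.6 CPM in control, at 33.5, 37.6 and 46.4 CPM with hairpin #1 and at 36.1, 43.0 and 43.1 CPM with hairpin #3. Every knockdown library was below every control library, with a log2 fold change of -0.70 ± 0.13 (adjusted p = 0.0013). NDUFB4, another accessory subunit, stood at 74.6, 85.7 and 87.3 CPM in control, against 52.5, 58.7 and 60.2 CPM with hairpin #1 and 51.1, 61.7 and 64.9 CPM with hairpin #3. Its groups did not overlap either, and the change was -0.50 ± 0.10 (adjusted p = 0.0018).

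NDUFB9, also an accessory subunit, fell from 51.9, 53.2 and 49.6 CPM to 31.7 to 43.2 CPM (-0.47 ± 0.10, adjusted p = 0.0044). NDUFC1 (-0.42 ± 0.10) and NDUFC2 (-0.45 ± 0.11), small subunits that sit next to each other in the membrane arm, were also called lower, NDUFC2 no longer so without control library B (adjusted p = 0.0671). Of the core subunits, NDUFV1, which binds NADH and flavin, was lower (-0.33 ± 0.09), as was NDUFS3 (-0.26 ± 0.09). NDUFV1 lost its call without control library B or C, and NDUFS3 lost its call without any of 7 libraries, at adjusted p-values of 0.0537 to 0.185.

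NDUFB6, a membrane-arm accessory subunit, was the one complex I member that rose in the pooled comparison. It was at 34.9, 39.2 and 36.5 CPM in control, at 40.7, 40.4 and 45.8 CPM with hairpin #1 and at 44.8, 51.7 and 57.3 CPM with hairpin #3. All 6 knockdown libraries were higher than all controls, but the change of 0.34 ± 0.12 was near the threshold (adjusted p = 0.046). The call was lost without any of the 3 control or 3 hairpin #3 libraries or hairpin #1 library C, at adjusted p-values of 0.0583 to 0.147.

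Complex II, succinate dehydrogenase, is encoded by 4 nuclear genes, and only its iron-sulfur subunit SDHB was called in the pooled comparison. That is 25% of the 4, against 33.0% of all genes. SDHB was at 58.5, 57.2 and 58.2 CPM in control, at 50.3, 45.8 and 47.9 CPM with hairpin #1 and at 48.5, 46.3 and 45.2 CPM with hairpin #3. The groups did not overlap, and the log2 fold change was -0.29 ± 0.07 (adjusted p = 0.0095). The membrane anchors SDHC and SDHD had changes of -0.05 ± 0.09 and -0.17 ± 0.09 and overlapped between groups. SDHA, the flavoprotein that holds the active site, was at 176 to 196 CPM in control, at 204 to 240 CPM with hairpin #1 and at 117 to 127 CPM with hairpin #3. Its pooled value of -0.15 ± 0.23 thus averaged 2 hairpins on opposite sides of the control, of which hairpin #3 was called (-0.63 ± 0.10, adjusted p = 0.00018) and hairpin #1 was not (0.21 ± 0.10, adjusted p = 0.108).

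Complex III had a nuclear median of -0.27 over 10 subunits. It was the lowest median of the 5 complexes. After the median of the 50 nearest genes was subtracted it was -0.089, and that of complex II, at -0.23, was the lowest. Of the 10 subunits, 4 were called lower and none higher, or 40% called against 33.0% of all genes. UQCRFS1, the Rieske iron-sulfur protein that takes electrons from coenzyme Q, was at 184, 187 and 187 CPM in control, at 137, 109 and 128 CPM with hairpin #1 and at 120, 120 and 119 CPM with hairpin #3. Its control libraries lay within a few CPM of each other and well above all knockdown libraries, at -0.61 ± 0.08 (adjusted p = 0.00014). CYC1, the cytochrome c1 that passes electrons on to cytochrome c, was at 145, 147 and 142 CPM in control and at 88.5 to 123 CPM in the knockdown libraries (-0.36 ± 0.11, adjusted p = 0.022). UQCRB, a small subunit, was at 72.2 to 75.6 CPM in control and at 47.1 to 63.0 CPM in the knockdown libraries (-0.35 ± 0.10, adjusted p = 0.018). Neither overlapped between control and knockdown. CYC1 lost its call without any of the control libraries, and UQCRB without control library A or B, at adjusted p-values of 0.0534 to 0.0754.

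UQCRQ, a further small subunit of complex III, was called (-0.41 ± 0.14, adjusted p = 0.040) although its control libraries at 25.0, 34.3 and 26.9 CPM overlapped the knockdown libraries at 17.8 to 25.3 CPM. It was not called without control library B (adjusted p = 0.247) or without any of 5 other libraries. The core proteins UQCRC1 (0.07 ± 0.11) and UQCRC2 (-0.05 ± 0.13) were not called. UQCRH (-0.07 ± 0.10) has a near-identical copy, UQCRHL (-0.31 ± 0.19), so the split of reads between the pair is uncertain.

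Complex IV, cytochrome c oxidase, had 11 tested nuclear subunits with a median of -0.18, and COX6C alone was called in the pooled comparison. That is 9.09% of the 11, against 33.0% of all genes. COX6C, a small subunit without a tissue-specific form, was at 86.7, 99.1 and 90.2 CPM in control, at 64.3, 64.2 and 77 CPM with hairpin #1 and at 66.7, 73.4 and 71.6 CPM with hairpin #3 (-0.40 ± 0.09, adjusted p = 0.0038). Knockdown and control libraries did not overlap. COX4I1 (0.05 ± 0.12), COX6B1 (-0.28 ± 0.12), COX7A2 (-0.11 ± 0.13), COX8A (-0.31 ± 0.14) and NDUFA4 (0.15 ± 0.10), a subunit once assigned to complex I, were not called. Nor was COX7A2L, which joins complexes III and IV into supercomplexes (-0.0039 ± 0.09).

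Complex V had the nuclear median nearest to 0, at -0.05 over 14 subunits, and held both the largest rise and the largest fall among the members tested. The sign of that median turned without control library B, to 0.05. ATP5G2 is 1 of 3 genes, with ATP5G1 and ATP5G3, that encode the same mature c subunit of the proton-driven rotor. It was at 91.2, 124 and 133 CPM in control, at 162, 172 and 202 CPM with hairpin #1 and at 167, 222 and 251 CPM with hairpin #3. Each knockdown library was above the control library of its letter and above all controls, with a log2 fold change of 0.75 ± 0.17 (adjusted p = 0.0041). ATP5G1 (0.23 ± 0.12) and ATP5G3 (0.03 ± 0.09) were not called. Per length, the 3 genes were at 29.1 ± 5.5, 30.8 ± 1.6 and 31 ± 0.97 CPM per kb in control for ATP5G2, ATP5G1 and ATP5G3. These levels did not differ beyond their spread, and how far they depend on the annotated length was not tested. With hairpin #3 the 3 genes were at 53.4 ± 11, 38.2 ± 6.1 and 31.4 ± 1.4 CPM per kb.

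ATP5L, subunit g of the membrane part of the ATP synthase, had the largest fall and is named after its values were seen, since its mean was below 10 CPM. It was at 11.1, 13.5 and 12.6 CPM in control, at 6.96, 7.27 and 6.60 CPM with hairpin #1 and at 7.59, 6.20 and 6.86 CPM with hairpin #3. The groups lay well apart, at -0.84 ± 0.12 (adjusted p = 0.00019). In the reference annotation 12.5% of its exonic bases are shared with other genes. ATP5C1, the gamma subunit of the central stalk, was lower by a small margin (-0.21 ± 0.07, adjusted p = 0.042) and lost its call without any of 8 of the 9 libraries, at adjusted p-values of 0.0545 to 0.131. ATP5SL carries an ATP synthase symbol but is known as a complex I assembly factor, and it was lower (-0.29 ± 0.09), no longer so without control library B or C (adjusted p = 0.0952 and 0.108).

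**Figure D2:**
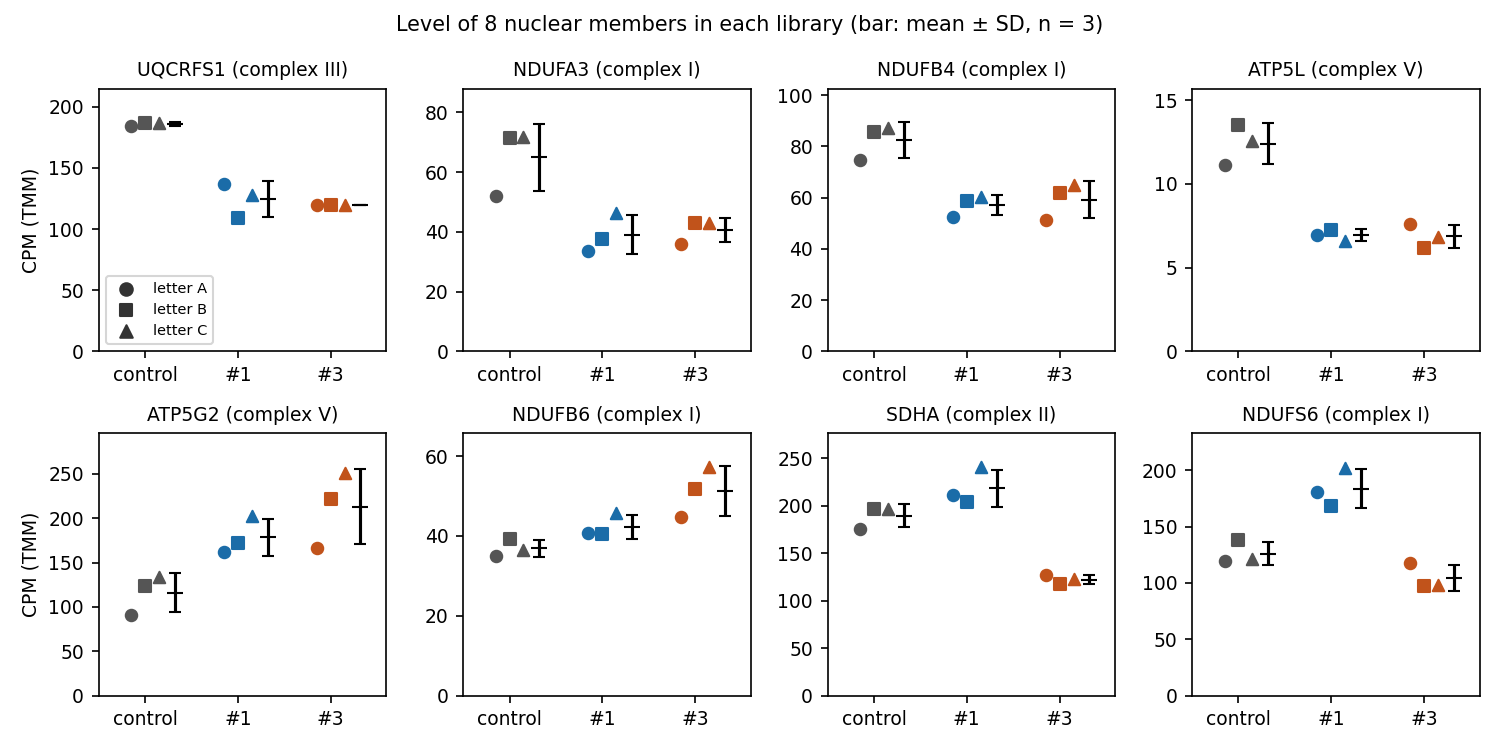
CPM of 8 nuclear members in each library, with circles for letter A, squares for B and triangles for C, and bars for the group mean ± SD (n = 3). UQCRFS1, NDUFA3, NDUFB4 and ATP5L are lower with both hairpins, ATP5G2 and NDUFB6 higher, and SDHA and NDUFS6 differ between hairpin #1 and hairpin #3.

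None of the 13 mitochondrially encoded members was called in any of the 4 comparisons among the groups by edgeR. These fits held no term for the letter, so the differences between letters described below were part of the spread. In the pooled comparison none of the 13 was called under any of 21 alternatives, which include a letter term. For the other comparisons the calls of these genes with a letter term are not given here. At an unadjusted p-value under 0.05 the counts were 0 for both hairpins, 0 for hairpin #1, 0 for hairpin #3 and 1 between the hairpins. The lowest adjusted p among these comparisons was 0.105, for MT-ND1 between the hairpins. MT-CO1, the catalytic subunit of complex IV and the most abundant member, was at 7135, 11163 and 10604 CPM in control, at 8148, 11591 and 10057 CPM with hairpin #1 and at 8187, 9529 and 10751 CPM with hairpin #3. The groups overlapped, with a pooled log2 fold change of 0.01 ± 0.16. MT-CYB, the cytochrome b of complex III, was at 2056, 2902 and 2828 CPM in control and at 2045 to 2771 CPM in the knockdown libraries (-0.10 ± 0.13).

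The 7 mitochondrially encoded subunits of complex I ranged from -0.20 ± 0.18 for MT-ND6 to 0.02 ± 0.12 for MT-ND2 in the pooled comparison. MT-ND6 is the one member on the other strand of mitochondrial DNA, and these libraries were not directional. MT-CO2 (-0.05 ± 0.17), MT-CO3 (-0.07 ± 0.11) and MT-ATP6 (-0.01 ± 0.14) likewise overlapped between groups. The SE over the 13 genes was 0.113 to 0.310, the largest being that of MT-ATP8.

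The 13 genes together took 2.6%, 3.82% and 3.57% of all counts in control libraries A, B and C, 2.73%, 3.67% and 3.34% with hairpin #1 and 2.88%, 3.31% and 3.60% with hairpin #3. The group means were 3.33 ± 0.64%, 3.25 ± 0.47% and 3.26 ± 0.36% (SD, n = 3), so the groups differed by less than their spread, and in each group library A was the lowest. The ratio of counts in the 13 genes to counts in the 90 nuclear members was 4.82 ± 0.75 in control, 5 ± 0.93 with hairpin #1 and 5.03 ± 0.32 with hairpin #3. These shares come from poly(A)-selected RNA and are not a measure of mitochondrial content.

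**Figure D3:**
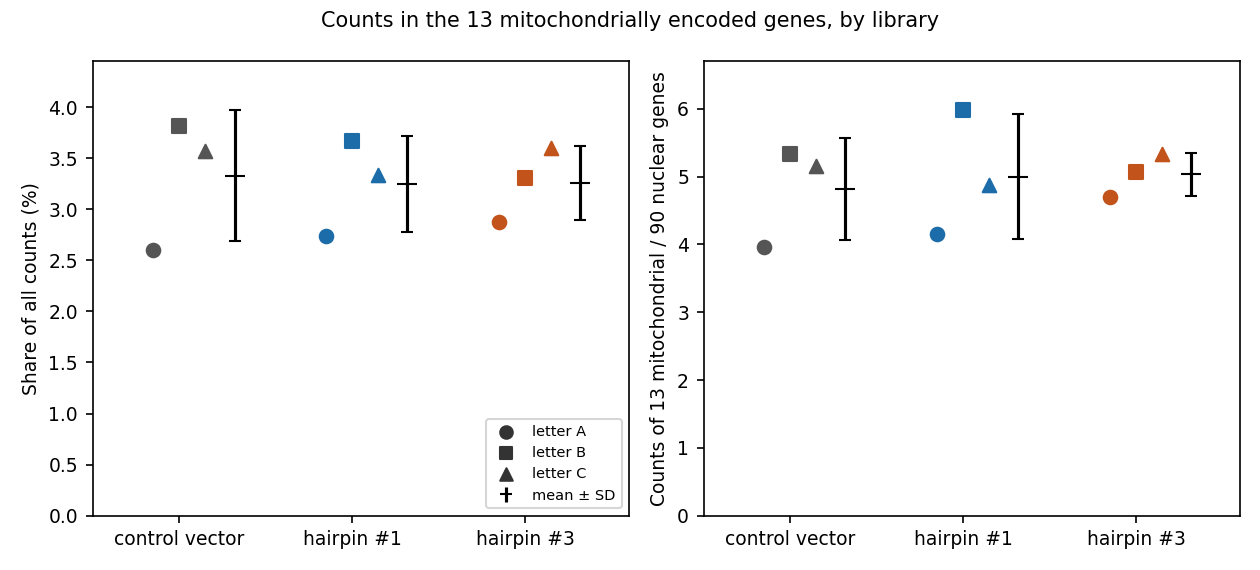
Left, counts in the 13 mitochondrially encoded genes as a percentage of all counts, and right, their ratio to counts in the 90 nuclear members, for each library of the control, hairpin #1 and hairpin #3 groups, with bars for the mean ± SD (n = 3). The groups overlap in both panels, and the circle for letter A is the lowest of its group, at 2.6%, 2.73% and 2.88% of counts.

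MT-ATP8, a small subunit of the membrane part of the ATP synthase, had the lowest counts of the 13, at 0.875 to 2 CPM. Its gene at chrMT:8366-8572 overlaps the start of MT-ATP6 at chrMT:8527-9207, both on the plus strand of GRCh38, by 46 bases or 22.2% of its length. MT-ATP6, which forms the proton path beside the c ring, was at 2101 to 3064 CPM. The sequence that both genes share is shown from the start codon of MT-ATP6, in capitals, from chrMT:8527-8553 in the transcripts of GENCODE 29.
MT-ATP8 and MT-ATP6, shared bases: ATGaacgaaaatctgttcgcttcattc
Reads over shared bases belong to both genes, and how the counting treated them is not given in the sources used here. Of the nuclear members, NDUFB8 and NDUFS7 share 48.5% and 49.1% of their exonic bases with other genes and NDUFV2 28.4%, and all 3 were at 1.93 CPM or less in every library. Those low values are therefore uncertain as levels of the genes, and the part of the shared bases in them was not tested.

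The nuclear and mitochondrially encoded members were set against each other by their medians. In the pooled comparison the median log2 fold change was -0.046 for the 13 mitochondrially encoded and -0.12 for the 77 nuclear members. With hairpin #1 these medians were -0.055 and -0.076, and with hairpin #3 they were -0.029 and -0.19. Within the letters, the nuclear median of hairpin #1 against the control library of the same letter was -0.044 for A, -0.23 for B and -0.031 for C. For hairpin #3 it was -0.12, -0.22 and -0.14. It was thus below 0 in all 6 pairs of libraries and lowest in letter B for each hairpin. Each control library served for both hairpins, so the 6 pairs are not independent. Control library B had the highest sum over the nuclear members of all libraries, at 7095 CPM. The mitochondrially encoded median within letters A, B and C was 0.049, -0.082 and -0.076 for hairpin #1 and 0.20, -0.23 and -0.071 for hairpin #3. With hairpin #3 all 13 genes were above control in letter A and all 13 below it in letter B, so their direction was not shared across letters.

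By complex, the nuclear medians within letters were below 0 in all 6 pairs for complexes II, III and IV. Complex III ranged from -0.060 with hairpin #1 in letter C to -0.51 with hairpin #1 in letter B. Complex V was above 0 in letter A with both hairpins, at 0.028 and 0.071, and below 0 in letter B, at -0.22 and -0.17. Complex I was at 0.0026 with hairpin #1 in letter C and below 0 in the other 5 pairs.

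The mitochondrially encoded members were lower in the libraries of letter A. These libraries were compared with the mean of letters B and C across the 3 groups, with group as a term. Of the 13 mitochondrially encoded members, 10 were called lower in letter A, and of the 77 nuclear members 18 were called lower and 1 higher, with 21.0% of all genes called. The lower calls were 31.1% of the 90 members against 10.4% of all genes, the 1 higher call stood beside 10.5%, and no member reached a log2 difference of 1 in size, as 1.04% of all genes did. The median was -0.36 for the mitochondrially encoded and -0.11 for the nuclear members. The nuclear drop was not particular to letter A in each group. Among hairpin #1 libraries the nuclear median was -0.068 for A, whereas B differed from C by a median of -0.22. Library A was the lowest there for 27 of the 77 nuclear members. Controls had nuclear medians of -0.15 for A against B and C and 0.016 for B against C, with A lowest for 52 members. Hairpin #3 libraries had -0.12 and -0.059 in the same order, with A lowest for 48. How often A is lowest among all genes of a single group is not given here, so these counts stand without a background. What the letters stand for beyond biological replicates is not given in the sources used here.

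MT-ND4, a proton-pumping subunit of complex I, shows the pattern. It was at 3072 CPM in letter A and 4941 and 4778 CPM in letters B and C of the control, at 3178 against 5116 and 4513 CPM with hairpin #1 and at 3476 against 4204 and 4853 CPM with hairpin #3. Letter A was the lowest in each group, with a log2 difference of -0.55 ± 0.08 (adjusted p = 0.00050). MT-CO2 (-0.50 ± 0.07), MT-ND6 (-0.51 ± 0.10) and MT-CO1 (-0.44 ± 0.08) followed. The 3 members not called were MT-ND2, MT-ND4L and MT-ATP8. Letter A was the lowest library in all 3 groups for 10 of the 13 mitochondrially encoded and for 19 of the 77 nuclear members, as it was for 15.4% of all genes.

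ATP5G2 was the nuclear member with the largest fall in letter A, at -0.39 ± 0.07 (adjusted p = 0.0014). By complex, the nuclear medians were -0.23 for complex IV, -0.12 for complex I, -0.090 for complex II, -0.013 for complex V and 0.050 for complex III. NDUFS1, the largest iron-sulfur subunit of complex I, was the one member called higher, at 0.19 ± 0.06 (adjusted p = 0.043), and lost that call without any of 6 libraries. The count of 29 members called was 12 without control library A, 12 without hairpin #3 library A and 19 without hairpin #1 library A. It was 17 without hairpin #3 library C and 17 with a per-library trend on gene length removed. The share of all genes called, 21.0% with all libraries, was 12.4%, 10.8%, 10.3%, 14.2% and 20.1% in the same order. In the control group alone the median of the 13 genes in A against B and C was -0.48, with hairpin #1 it was -0.37 and with hairpin #3 -0.17.

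**Figure D4:**
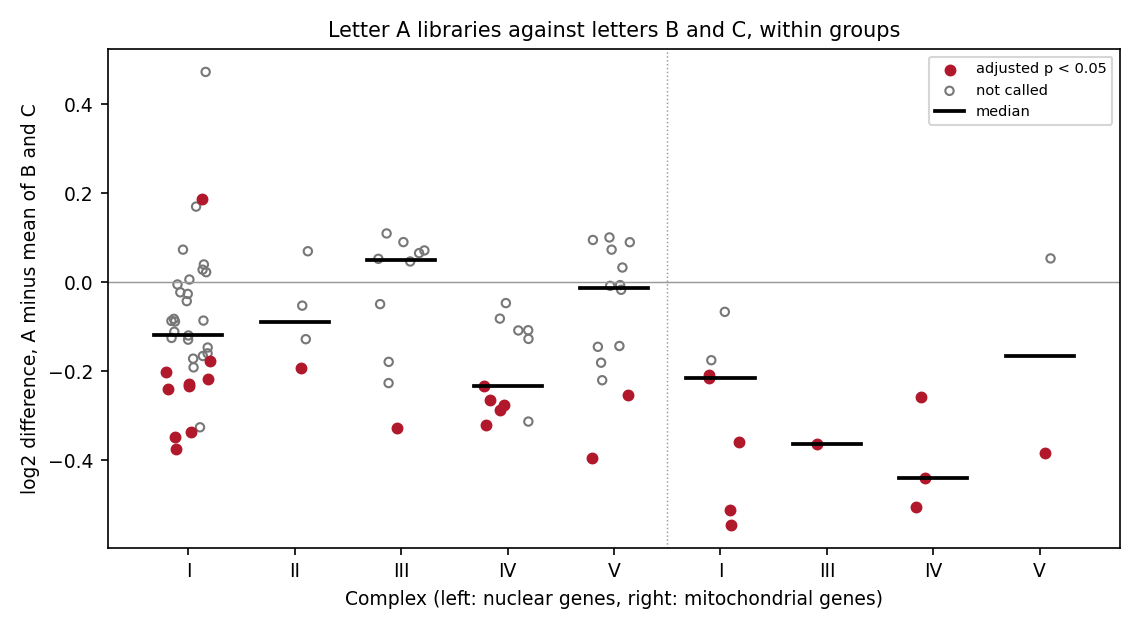
log2 difference of letter A libraries from the mean of letters B and C within groups (edgeR, group as a term) for each tested subunit, by complex; filled red points are genes called at an adjusted p under 0.05, open points were not called, and bars are medians. The mitochondrially encoded genes on the right lie below 0 apart from MT-ATP8 at 0.05, and the nuclear genes of complexes III and V are spread around 0.

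Between the hairpins, 5 of the 90 members differed, where 11.6% of all genes did. Of these, 1 member was higher with hairpin #3 and 4 were lower, against 6.33% and 5.30% of all genes, and none reached a log2 fold change of 1 in size, as 3.93% of all genes did. Without the 3 letter A libraries the count was 9, with 16.8% of all genes called. SDHA was lower with hairpin #3 than with hairpin #1 by a log2 fold change of -0.84 ± 0.10 (adjusted p = 0.00011). NDUFS6, a zinc-binding subunit of complex I, was at 119, 138 and 121 CPM in control, at 181, 168 and 202 CPM with hairpin #1 and at 118, 97.6 and 97.9 CPM with hairpin #3. The hairpins did not overlap, and the difference was -0.82 ± 0.11 (adjusted p = 0.00035). Against control, NDUFS6 was called higher with hairpin #1 (0.54 ± 0.11), and with hairpin #3 its value was -0.27 ± 0.11 (adjusted p = 0.0745).

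NDUFV3, an accessory subunit near the NADH site, was at 26.9, 31.9 and 29.3 CPM in control, at 26.5 to 33.0 CPM with hairpin #1 and at 17.9 to 19.8 CPM with hairpin #3 (-0.62 ± 0.12 between hairpins, adjusted p = 0.0036). UQCRC2 was at 88.3 to 91.6 CPM in control, at 96.7 to 107 CPM with hairpin #1 and at 73.3 to 74.5 CPM with hairpin #3 (-0.44 ± 0.08, adjusted p = 0.0039). Both were separated by hairpin without overlap. COX6A1, the general isoform of subunit 6A, went the other way, at 5.23, 7.17 and 6.02 CPM in control, at 1.92, 4.02 and 3.99 CPM with hairpin #1 and at 6.88, 5.76 and 6.08 CPM with hairpin #3. Its difference of 0.91 ± 0.25 (adjusted p = 0.031) rests on low counts and was not called without hairpin #1 library A or any hairpin #3 library, at adjusted p-values of 0.0570 to 0.0752. Of its exonic bases 13% are shared with another gene. None of the mitochondrially encoded members was called between the hairpins in this fit, which held no letter term.

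SDHA at chr5:218241-256700 and NDUFS6 at chr5:1801400-1816605, on GRCh38, lie near each other at the end of the short arm of chromosome 5. The 50 tested genes nearest to them that are not members had a median log2 fold change of -0.72 between the hairpins, close to the values of both genes. Against control this median was 0.44 with hairpin #1 and -0.26 with hairpin #3. After it was subtracted, SDHA was at -0.11 and NDUFS6 at -0.091 between the hairpins. NDUFV3 and UQCRC2 were at -0.55 and -0.39 after the same step, and COX6A1 was at 0.65.

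In the pooled comparison, the value of a nuclear member and that of its 50 nearest genes were related with r = 0.57 and rho = 0.50 over 77 genes. These are points across genes from the same 9 libraries, and nearby members share neighbours, so the values are a description. All 4 members on chromosome 8, namely NDUFB9, UQCRB, CYC1 and COX6C, were called lower, and the 542 other tested genes of that chromosome had a median of -0.27. On chromosome 11, 4 of 7 members were called lower with a median of -0.13 for the other genes, and on chromosome 19, 3 of 10 with -0.14. CYC1 at chr8:144095027-144097525 had neighbours at -0.46 and stood at 0.10 relative to them. NDUFV1 at chr11:67606852-67612535 had neighbours at -0.44 and stood at 0.11 relative to them. For NDUFA3, the called complex I member with the largest fall, the neighbours were at -0.43 and it stood at -0.28 relative to them.

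Other members differed from their neighbourhood. NDUFB4 at chr3:120596309-120602500 had neighbours at 0.053 and stood at -0.56 relative to them, and NDUFC1, NDUFC2, SDHB and UQCRFS1 stood at -0.45, -0.44, -0.42 and -0.42. ATP5G2 at chr12:53632726-53677408 had neighbours at 0.23 and stood at 0.53 relative to them. ATP5L at chr11:118401154-118431496 lies 149 kb from MPZL3, had neighbours at -0.37 and stood at -0.47 relative to them. Of the 16 lower members, 11 had a neighbourhood median below -0.1, and 9 remained below -0.2 after it was subtracted. The nuclear median moved from -0.12 to -0.087, and that of complex III from -0.27 to -0.089.

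**Figure D5:**
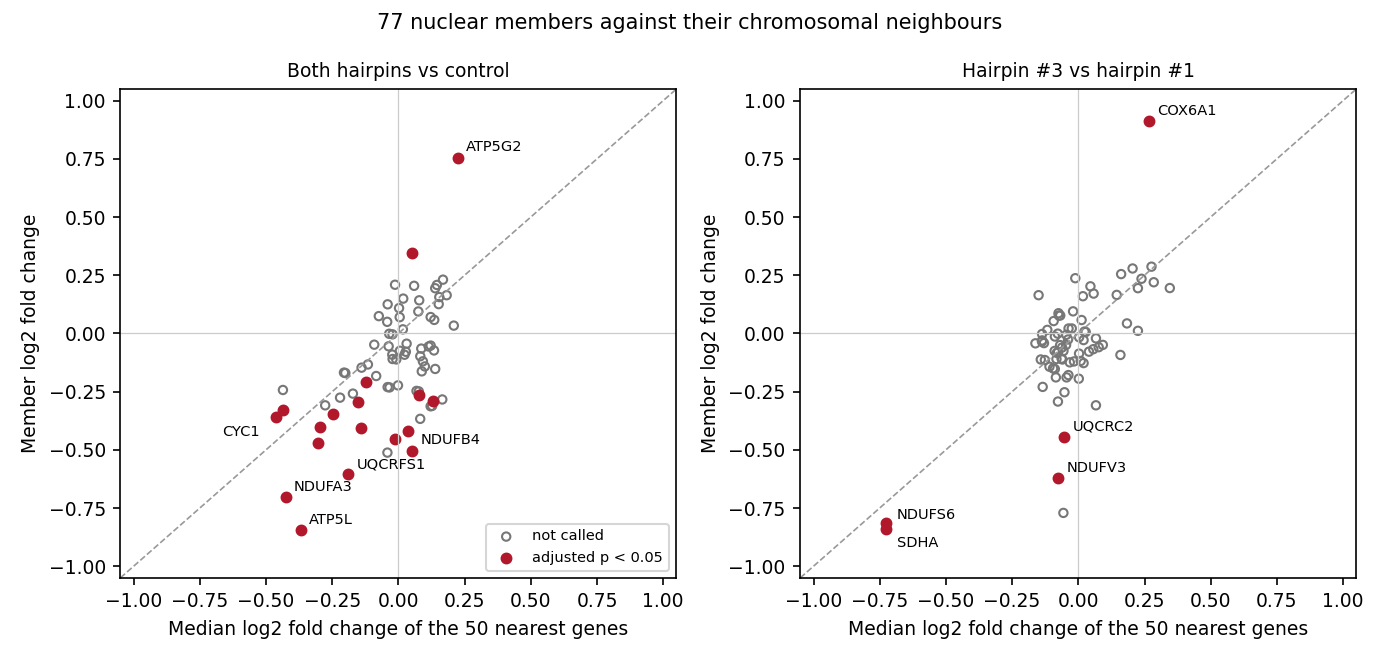
log2 fold change of each of the 77 tested nuclear members against the median of its 50 nearest tested genes, for both hairpins against control on the left and hairpin #3 against hairpin #1 on the right; the dashed line marks equal values and filled red points are genes called at an adjusted p under 0.05. SDHA and NDUFS6 lie near the line at -0.84 and -0.82, whereas NDUFB4, UQCRFS1 and ATP5G2 lie away from it.

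Many nuclear respiratory genes are known as targets of NRF1 and of the ETS factor GABP, so their promoters were searched for the letters of both kinds of site. RefSeq promoters on GRCh38.p14, 250 bases before to 50 after the start, were matched for 68 of the 90 nuclear members. The NRF1-type letters are GCGCA, any base N and then GCGC, read on both strands. They were present in 16 of the 68 or 23.5%, against 5.78% of 35116 promoters. Those 35116 are all promoters of the reference, not only those of genes tested here, so the sets compared are unlike. The ETS-type letters CCGGAAG, on both strands, were in 19 of the 68 or 27.9%, against 10.3%. No match of the one overlapped a match of the other in the 3 members with both, and 36 members had neither. Of the 16 members called lower in the pooled comparison, 11 had a promoter here, of which 4 held NRF1-type and 4 other ones ETS-type letters. Of the 59 tested and not called, 48 had a promoter, of which 10 held NRF1-type and 14 ETS-type letters.

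The windows below belong to 5 members that were called lower and to SDHA, which differed between the hairpins. They are written along the strand of the gene with the matched letters in capitals, at chr19:29213163-29213192 (minus strand) for UQCRFS1, chr19:54102675-54102704 (plus) for NDUFA3, chr3:120596167-120596196 (plus) for NDUFB4, chr5:218144-218173 (plus) for SDHA, chr1:17054144-17054170 (minus) for SDHB and chr11:118401597-118401623 (plus) for ATP5L.
UQCRFS1: gcgcctcctcGCGCCTGCGCcgtggttgga
NDUFA3: ctgcgcgagtGCGCACGCGCaggctccgaa
NDUFB4: agagcacttcGCGCATGCGCatatcaccga
SDHA: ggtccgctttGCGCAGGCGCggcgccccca
SDHB: acccgggaaaCCGGAAGccgcctccca
ATP5L: gcagcgggtcCTTCCGGcgggtgacat
The first 4 hold NRF1-type letters, UQCRFS1 on the strand opposite to its gene, and the last 2 hold ETS-type letters, ATP5L on the opposite strand. Neither ATP5G2 nor NDUFB6, the members that rose, held either kind in its window. A match of letters is not evidence of binding.

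The known regulators of these genes were measured as well. Of 10 tested, 2 or 20% were called, against 33.0% of all genes. ESRRA, a nuclear receptor that drives oxidative genes, was lower and MYC was higher. ESRRA was at 63.6, 67.7 and 67.2 CPM in control and at 38.7 to 44.9 CPM in the knockdown libraries (-0.65 ± 0.08, adjusted p = 5.27e-05), without overlap. MYC was at 96.4, 102 and 109 CPM in control and at 120 to 199 CPM in the knockdown libraries (0.61 ± 0.17, adjusted p = 0.015), also without overlap, and was not called without control library A or B (adjusted p = 0.0625 and 0.0621). NRF1 (adjusted p = 0.72) and GABPA (adjusted p = 0.24) were not called, and PPARGC1A had no count in any library. The medians of nearest genes are given for members alone, not for the genes of this list or of the lists below. How far the changes of such genes, ESRRA among them, are shared with nearby genes was therefore not tested.

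Of 47 tested assembly factors, 9 were lower and 1 was higher in the pooled comparison, with a median of -0.15. The lower calls were 19.1% of the list against 17% of all genes, and the higher 2.13% against 15.9%. UQCC3, which helps to assemble cytochrome b into complex III, was at 4.6, 6.67 and 4.49 CPM in control and at 1.48 to 2.41 CPM in the knockdown libraries (-1.39 ± 0.21, adjusted p = 0.00028). COX17, the copper chaperone of complex IV, was at 30.6, 31.6 and 26.8 CPM in control and at 14.2 to 16.8 CPM (-0.92 ± 0.10, adjusted p = 1.92e-05). ATPAF2, an assembly factor of the ATP synthase head, fell by 0.86 ± 0.17 on the log2 scale. None of these 3 overlapped between control and knockdown.

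Of 16 genes for maintenance and transcription of mitochondrial DNA, C10orf2, the Twinkle helicase, was called higher (0.40 ± 0.11) and none lower, so that 6.25% of the list was called against 33.0% of all genes. It was no longer called without control library B or C or without the letter A libraries. Of 19 genes for processing and stability of mitochondrial RNA, KIAA0391, the nuclease of mitochondrial RNase P, was higher (0.51 ± 0.16) and FASTKD2, an RNA-binding protein, lower (-0.24 ± 0.08), and each lost its call without any of 5 and 7 libraries. The called share of that list was 10.5%. Of 77 mitochondrial ribosomal protein genes, 14 or 18.2% were lower and 1 or 1.3% higher, near the 17% of all genes for the lower and below the 15.9% for the higher calls, with a median of -0.088. MRPL49 fell from 105 to 111 CPM in control to 68.8 to 83.6 CPM (-0.50 ± 0.08), MRPL1 fell by 0.51 ± 0.14 on the log2 scale, not called without control library B (adjusted p = 0.0740), and MRPS24 rose (1.46 ± 0.34) from under 1 CPM.

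Of 15 genes of coenzyme Q synthesis and cytochrome c, 3 were lower and 2 higher, or 33.3% called against 33.0% of all genes. ADCK3, an atypical kinase of coenzyme Q synthesis, was at 17.2, 27.1 and 33.2 CPM in control and at 33.3 to 48.3 CPM in the knockdown libraries (0.70 ± 0.19, adjusted p = 0.013). Its relative ADCK4 (-0.56 ± 0.14) and the methyltransferase COQ3 (-0.64 ± 0.17) were lower, not called without control library C (adjusted p = 0.0540) and control library A (adjusted p = 0.0640). Of 18 genes of the tricarboxylic acid cycle, which feeds NADH and succinate to complexes I and II, 4 or 22.2% were lower, against 17% of all genes, and none was higher. They included OGDH (-0.43 ± 0.11), DLAT (-0.42 ± 0.10) and IDH3A (-0.59 ± 0.18). OGDH lost its call without control library C (adjusted p = 0.0692) and IDH3A without control library A (adjusted p = 0.120).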

How the data were processed

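RNA of OVCA433 cells was converted to poly(A)-selected, non-directional libraries, per the labels, and 3 biological replicates were made per group. The submitters' processing notes name HISAT2 2.0.5, featureCounts 1.5.0-p3 and hg38. The authors deposited raw read counts per gene, with no normalization. Positions and exon overlaps were taken from GENCODE 29 on GRCh38, which holds all 58676 identifiers and has the same start and end for 97.09% of the members.

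Genes were filtered with filterByExpr of edgeR 4.0.16 (minimum count 10, total 15), which left 15975 genes with 99.9% of the counts. Under R 4.3.3, TMM factors and the quasi-likelihood F-test of edgeR were used, p-values of all tested genes were adjusted by Benjamini-Hochberg, and the threshold was 0.05. As in the study, both hairpins formed 1 arm. Each hairpin, the hairpins against each other and letter A against B and C, with group as a term, were fitted to all 9 libraries. Each SE is the log2 fold change divided by the square root of F. The scripts were tested on simulated counts. Alternatives were DESeq2 1.42.0, other scalings, filters and thresholds, a letter block, a gene length trend, thinning, subtraction of the median of the 50 nearest genes and leaving out libraries.

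The members and gene lists were chosen with earlier results of these data known. Named were all mitochondrially encoded and complex II genes, the isoform sets, the 3 largest called changes per direction and complex at a mean of at least 10 CPM, the 5 largest between hairpins and between letters, and 3 per list. Other members are named after their values were seen. Library totals limit precision, and p-values measure the spread between these cultures of 1 line.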

Additional observations from a re-analysis of the deposited data

Results flagged for a closer look

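The 5 members that differed between hairpin #3 and hairpin #1 in the test of that difference itself were SDHA (log2 fold change -0.84), NDUFS6 (-0.82), NDUFV3 (-0.62), UQCRC2 (-0.44) and COX6A1 (0.91). SDHA, NDUFS6, NDUFV3 and UQCRC2 kept the call under all 20 alternatives tried for them. COX6A1 lost it under 5 of 20, 4 of them the removal of a library and 1 the removal of all letter A libraries. Over the 6 knockdown libraries, 52 values were examined for a library far from the others, namely the levels of named members and the sums per complex, and none passed Dixon's 95% limit of 0.625. Both hairpins were pooled there. Where they differed, as in the 5 members above, a library apart within 1 hairpin could be missed. Counts in mitochondrial ribosomal RNA, transfer RNA and pseudogene rows were in no hairpin group wholly above the control libraries. The transfer RNA rows were wholly below them with hairpin #1.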

How the results depend on the processing

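The counts of called members moved by over 1.5 times in 24 of 109 recomputations, the medians by more than the spread between libraries in 12 of 717 and the shares of counts in none of 15. No value turned direction with a call. Of 1573 values for named genes, 96 lost a call and 3 gained one. The pooled count of 18 was 11 without the 3 letter A libraries, an alternative chosen after seeing the data, 10 at an adjusted p under 0.01, and 9 to 18 with 1 library left out. For hairpin #1 the count of 16 was 10 at 0.01 and 11 to 18 with 1 library left out. For hairpin #3 the count of 20 was 10 at 0.01 and 12 to 23. Between the hairpins the count of 5 was 9 without letter A and 4 to 6. For letter A the count of 29 was 12 at 0.01, 17 with a gene length trend removed and 12 to 32. At a log2 fold change of at least 1 each of these counts was 0. DESeq2 called 18, 16, 21, 6 and 26 members in the same order of comparisons. Shares of all genes called moved as well. The pooled share of 33.0% was 26.7% without letter A and 22.9% without control library B. The cause of these shifts was not tested.

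After the median of the 50 nearest genes was subtracted, complex II stood at -0.23 in the pooled comparison and -0.29 with hairpin #3, and complex III at -0.089 in the pooled comparison, -0.15 with hairpin #1 and -0.10 with hairpin #3. With 1 library left out, the median ranged from -0.23 to -0.12 for complex II and from -0.097 to 0.050 for complex V in the pooled comparison. With hairpin #1 it ranged from -0.36 to -0.18 for complex III and from -0.14 to 0.055 for complex V. Between the hairpins it ranged from -0.042 to 0.096 for complex III and from -0.075 to 0.074 for complex V. No setting moved the median of all genes by over 0.1.

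The letters are shared by the groups, but no source says what a letter shares. Same-letter libraries of different groups had correlated deviations over 0.1 in 6 of 9 pairs, from 0.037 to 0.36. All 9 were positive, and 7 libraries correlated best with their own letter. The letters were to be taken as pairing the samples only if every pair was over 0.1. The main fits therefore held no letter term, and differences between letters stayed in their spread. With the letter as a replicate block the counts were 20 pooled, 29 for hairpin #1, 35 for hairpin #3 and 12 between the hairpins. The main fits called 18, 16, 20 and 5. Under that block 36.1%, 48.8%, 45.6% and 23.1% of all tested genes were called in the same order. With counts of a few CPM, as in COX6A1, MT-ATP8 and NDUFB8, depth limits the precision.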

Other observations

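The 2 mitochondrial ribosomal RNA genes summed to 1825 ± 338 CPM in control, 1708 ± 215 CPM with hairpin #1 and 1709 ± 210 CPM with hairpin #3 (SD, n = 3). The transfer RNA rows summed to 26, 45.5 and 36.8 CPM in control libraries A, B and C, to 17.9, 24.5 and 20.5 CPM with hairpin #1 and to 22.5, 25.6 and 27.1 CPM with hairpin #3. All hairpin #1 libraries were below the lowest control library, hairpin #3 library C was above it, and letter A was the lowest in each group. These sums were not tested, and poly(A) selection retains little transfer RNA. The 379 pseudogene rows with mitochondrial symbols on nuclear chromosomes summed to 350 to 602 CPM per library, against 25547 to 37889 CPM for the 13 genes. How reads that match both were counted is not given in the sources used here.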
